A study of Mus musculus with 10 samples.

Results

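Macrophages are phagocytic cells of the innate immune system that engulf debris and present antigen, and every organ holds them. In kidney, resident macrophages lie around the tubules and depend on signaling through the receptor Csf1r, while monocytes recruited from the blood enter inflamed tissue and become macrophages there. Genes that mark these cells were followed in whole kidney RNA, where fewer cells of a type and less RNA per cell cannot be told apart. The set was defined by name as 10 genes of resident and recruited macrophages and monocytes. Of these, 9 were rows of the deposited table of 13299 genes and all 9 passed the filter on low values, together with 13236 genes in all. Cd14, a co-receptor for bacterial lipopolysaccharide, was not analysed here.

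The kidneys came from mice aged 1.5 years with 1 knocked-in Rragc S74N allele and from Rragc +/+ mice, with 5 samples in each group. Rragc encodes RagC, a GTPase through which nutrient levels reach mTORC1, a kinase complex that drives growth, and the S74N protein is active. The mutation was made by genome editing of blastocysts and lies in every cell of the mouse, so kidney cells and blood-derived cells both carry it. Neither group received a treatment per the labels, which do not give the sex or say whether the samples came from separate litters, and replicates were numbered by order of deposit. P-values measure the spread between these samples.

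Values are normalized counts, which are reads per gene divided by a size factor of the sample, from libraries that read the 3′ end of each mRNA. An RNA input of 300 ng and a mean RNA quality of 6.7 (6.2 to 7) were stated alike for all 10 samples. RNA quality could therefore not be compared between the genotypes. In the 8 samples whose reads were recovered (all but +/+ replicate 5 and S74N/+ replicate 3), depth ran from 4488493 to 5797251 reads. A single read was worth between 0.873 and 1.12 normalized counts over the 10 samples, so a value near 20 rests on about as many reads. Kidney epithelial markers were present in all samples, with 10 of 10 in the table and a sum of at least 28096 normalized counts, although 3 of them (Slc5a2, Umod and Slc12a3) were lower in S74N/+ kidneys. Ddx3y, a Y-linked gene, was at 170 or more normalized counts in each of the 10 kidneys. Rragc itself had 146.5 ± 42.7 in +/+ and 123.7 ± 26.4 in S74N/+ kidneys (SD, n = 5 per group), and reads at the 3′ end do not show the allele. The share of mitochondrial transcripts ran from 35.8% to 38.04% in +/+ and from 33.8% to 36.8% in S74N/+ kidneys (exact permutation p = 0.056), and its part in the results below was not tested.

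Mpeg1 and Lyz2 were the members that rose in S74N/+ kidneys, and the other 7 did not pass the test. Over all genes tested, 3.45% were called higher and 2.58% lower (limma, adjusted p under 0.05), 6.03% in all, and among the members 2 of 9 were called higher and 0 lower, with 4 of 9 at an unadjusted p under 0.05 against 25.4% of all genes. Scaling to equal library totals changed the split of calls over all genes from 457 higher and 341 lower to 718 and 225, and gave 4 members called higher. Of the 9 members, 8 had a positive log2 fold change (median 0.32), whereas 48.7% of all tested genes did (median -0.01). Every S74N/+ kidney was above every +/+ kidney for 2 of the 9 members, Mpeg1 and Lyz2, against 4.15% of all genes, and 0 members were separated in the other direction, against 4.01% (8.16% in either direction). The members were chosen with earlier results of these data known, so these shares describe the set and are not a test of it.

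The promoters of both genes that rose, and of Mrc1, whose fold change lay between theirs, are shown because these 3 were the members with the greatest differences, a choice made after their values were seen. Each line gives the 250 bases before the transcription start, 5′ to 3′, from RefSeq on build GRCm38.p6. Myeloid genes are commonly bound by the transcription factor PU.1, so capitals mark GAGGAA and GGAAGT, 2 forms of its core, searched on both strands (TTCCTC and ACTTCC where the match is on the other strand). The 2 forms overlap where GAGGAA is followed by GT.
Lyz2 (chr10:117282273-117282522, minus strand): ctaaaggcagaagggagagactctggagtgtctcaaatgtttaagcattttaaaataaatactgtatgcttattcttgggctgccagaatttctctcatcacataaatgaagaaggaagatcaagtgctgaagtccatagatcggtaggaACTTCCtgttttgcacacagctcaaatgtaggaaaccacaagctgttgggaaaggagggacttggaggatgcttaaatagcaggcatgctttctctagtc
Mpeg1 (chr19:12460520-12460769, plus strand): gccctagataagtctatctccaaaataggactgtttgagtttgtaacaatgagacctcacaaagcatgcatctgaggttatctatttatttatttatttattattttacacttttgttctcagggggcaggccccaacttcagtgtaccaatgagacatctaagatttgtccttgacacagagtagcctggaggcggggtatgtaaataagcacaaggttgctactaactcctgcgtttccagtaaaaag
Mrc1 (chr2:14229164-14229413, plus strand): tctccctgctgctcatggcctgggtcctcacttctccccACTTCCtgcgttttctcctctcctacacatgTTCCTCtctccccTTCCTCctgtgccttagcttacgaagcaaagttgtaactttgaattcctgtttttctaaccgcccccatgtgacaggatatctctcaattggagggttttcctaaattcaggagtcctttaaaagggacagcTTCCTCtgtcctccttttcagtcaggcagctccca
Lyz2 held 1 GGAAGT and no GAGGAA, Mrc1 held 1 GGAAGT and 3 GAGGAA, and Mpeg1 held neither. Of 32851 promoter windows of this length, 23.3% had a GAGGAA and 19.7% a GGAAGT, so such matches are common. An interferon response form, GAAA repeated after any 2 bases and searched on both strands, was in 2.98% of all windows and in none of the 5 member windows present (Fcer1g, Mrc1, Lyz2, Cd68 and Mpeg1). These letters describe the windows and do not show binding.

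**Figure D1:**
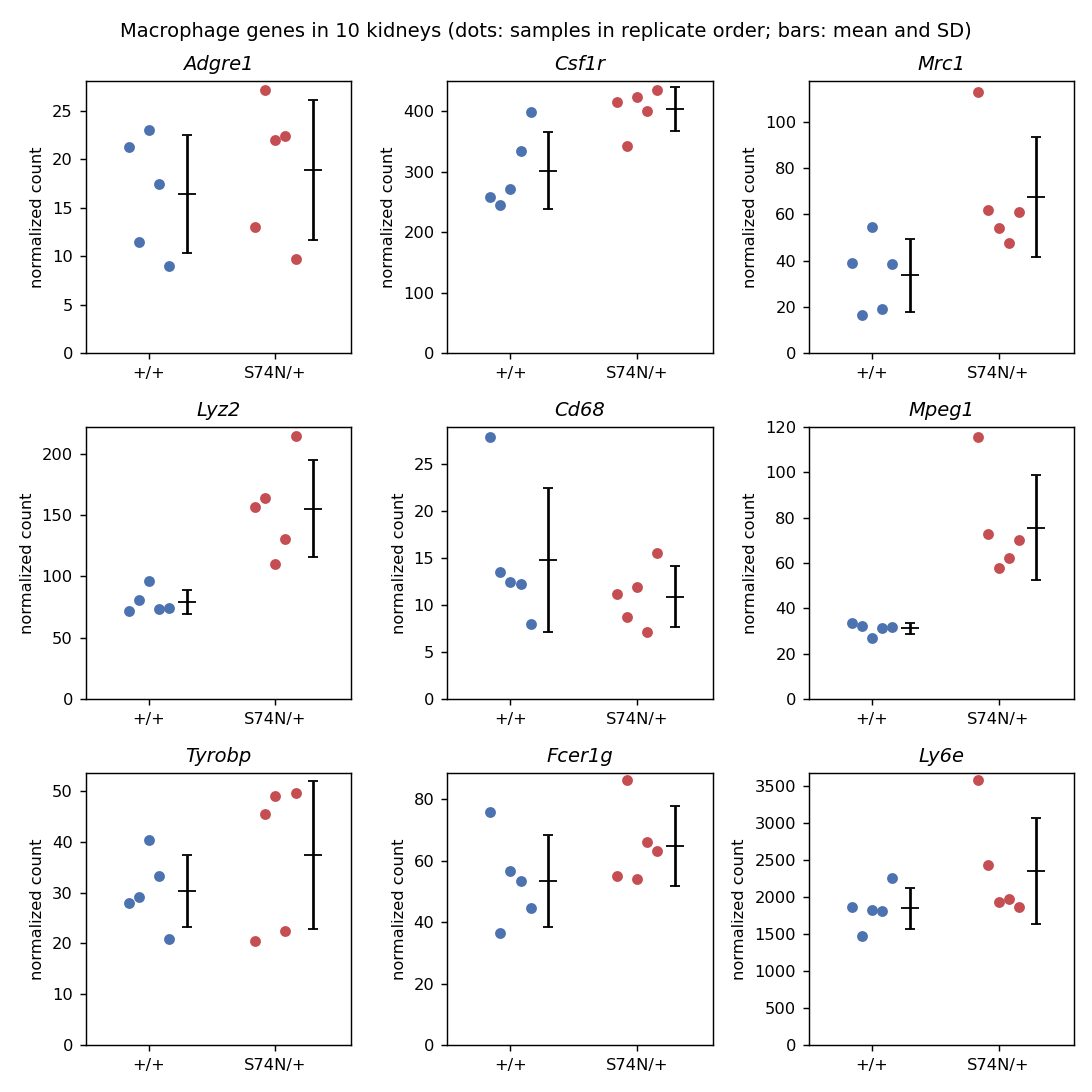
Normalized counts (vertical axes, from 0) of the 9 macrophage genes in each kidney; dots are the 5 samples of a group in replicate order (+/+ blue, S74N/+ red) and black bars the mean and SD. For Lyz2 and Mpeg1 all S74N/+ dots lie above all +/+ dots, with lowest S74N/+ values of 109.98 and 57.99 against highest +/+ values of 95.99 and 33.6, while the dots of the 2 genotypes overlap for the other 7 genes.

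Of the 3 resident genes among the members, Adgre1, which encodes the surface protein F4/80, had the lowest level. In +/+ replicates 1 to 5 it had 21.3, 11.4, 23.04, 17.5 and 8.95 normalized counts. The S74N/+ replicates had 13.1, 27.1, 21.995, 22.4 and 9.72. Both groups spanned nearly the same range, and S74N/+ replicate 5 and +/+ replicate 5 were the lowest of their groups. The log2 fold change of Adgre1 was 0.18 ± 0.35 (SE; 95% interval -0.56 to 0.92; limma adjusted p = 0.79), and an interval this wide leaves either direction possible at this depth. Its sign was not stable, since edgeR on the 8 samples with recovered reads gave -0.011.

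Csf1r, the receptor for the growth factors CSF1 and IL-34 on which macrophage survival depends, had the highest level of those 3 genes. Its normalized counts were 258.4, 245.5, 271.7, 333.6 and 398.96 in +/+ replicates 1 to 5. They were 414, 342.1, 423.9, 399.2 and 435.3 in the S74N/+ replicates. All S74N/+ kidneys but replicate 2 lay above all +/+ kidneys, and +/+ replicate 5 was the 1 control above that replicate. The log2 fold change was 0.44 ± 0.14 (SE; 95% interval 0.14 to 0.73) and missed the threshold over all genes (limma adjusted p = 0.073), whereas the exact permutation test of this gene alone gave p = 0.016. Without +/+ replicate 5 it was 0.54 (limma adjusted p = 0.026), and the other 9 fits without 1 kidney did not pass. The 8 samples with recovered reads also lack that replicate, and on them Csf1r passed with limma (0.52, adjusted p = 0.044), edgeR (0.53, adjusted p = 0.043) and DESeq2 (0.52, adjusted p = 0.019).

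Mrc1 encodes the mannose receptor CD206, an endocytic receptor of tissue macrophages. In +/+ kidneys it had 39.2, 16.6, 54.7, 19.2 and 38.8 normalized counts. In S74N/+ kidneys it had 112.8, 62.03, 53.99, 47.9 and 61.2. The S74N/+ values were higher apart from replicates 3 and 4, which lay below +/+ replicate 3, and S74N/+ replicate 1 stood far above the rest of its group. Mean levels were 33.7 ± 15.8 and 67.6 ± 25.9 (SD, n = 5 per group), a ratio of 2.01. The log2 fold change of 1.05 ± 0.31 (SE; 95% interval 0.38 to 1.71) did not pass over all genes (limma adjusted p = 0.059; exact permutation p = 0.024). Over the 10 fits without 1 kidney it ran from 0.84 to 1.25 and passed in 1, without +/+ replicate 3 (limma adjusted p = 0.033). On 8 samples it passed with DESeq2 (1.13, adjusted p = 0.036) but not with edgeR (1.14, adjusted p = 0.082) or limma (1.19, adjusted p = 0.067).

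Lyz2 encodes lysozyme M, a bacteriolytic enzyme of monocytes, macrophages and neutrophils. By textbook use it was the only measured member set on the recruited side, a label that does not exclude its other makers. It has a near-identical copy, Lyz1, which was not analysed here, so its counts may hold or lack reads of the pair. The +/+ kidneys had 71.6, 81.1, 95.99, 73.4 and 74.6 normalized counts. The S74N/+ kidneys had 156.7, 163.8, 109.98, 130.4 and 214.7, each above every +/+ kidney. The mean rose from 79.3 ± 9.98 to 155.1 ± 39.6 (SD, n = 5 per group), a ratio of 1.95. The log2 fold change was 0.93 ± 0.17 (SE; 95% interval 0.56 to 1.30; limma adjusted p = 0.0077). The exact permutation p of 0.0079 is the smallest that 5 against 5 samples can give.

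Of the pan-macrophage genes, Mpeg1 rose and Cd68 did not pass. Mpeg1 encodes perforin-2, a pore-forming protein that macrophages direct at engulfed bacteria. In +/+ replicates 1 to 5 it had 33.6, 32.2, 26.9, 31.4 and 31.8 normalized counts, the narrowest spread of any member. In S74N/+ replicates it had 115.6, 72.7, 57.99, 62.1 and 69.95, with replicate 1 well above the others and none within the +/+ range. The mean rose from 31.2 ± 2.54 to 75.7 ± 23.1 (SD, n = 5 per group), a ratio of 2.43. Its log2 fold change, 1.21 ± 0.20 (SE; 95% interval 0.78 to 1.64; limma adjusted p = 0.0033), was the largest among the members, and without S74N/+ replicate 1 it was 1.05 (limma adjusted p = 0.0028).

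Cd68 encodes a lysosomal glycoprotein widely used to stain macrophages, and it was the member whose mean was lower in S74N/+ kidneys. It had 27.97, 13.5, 12.5, 12.2 and 7.96 normalized counts in +/+ kidneys. In S74N/+ kidneys it had 11.2, 8.72, 11.997, 7.13 and 15.5. The groups overlapped, and the +/+ mean rested on replicate 1, which was the highest of all 10 samples. The log2 fold change was -0.34 ± 0.36 (SE; 95% interval -1.11 to 0.43; limma adjusted p = 0.60), and it was -0.09 without +/+ replicate 1.

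Tyrobp and Fcer1g encode short transmembrane adaptors, DAP12 and the Fc receptor gamma chain, that carry an immunoreceptor tyrosine-based activation motif (ITAM) and pass signals from activating receptors to the kinase Syk. Tyrobp had 27.97, 29.1, 40.3, 33.2 and 20.9 normalized counts in +/+ kidneys. In S74N/+ kidneys it had 20.52, 45.6, 48.99, 22.4 and 49.5. The S74N/+ kidneys split, with replicates 2, 3 and 5 above all +/+ kidneys and replicates 1 and 4 near the lowest. Fcer1g ran from 36.4 to 76.1 in +/+ (median 53.3) and from 53.99 to 86.3 in S74N/+ kidneys (median 63.2). Neither passed, with log2 fold changes of 0.23 ± 0.29 for Tyrobp (95% interval -0.38 to 0.84; limma adjusted p = 0.66) and 0.30 ± 0.21 for Fcer1g (SE; 95% interval -0.15 to 0.74; limma adjusted p = 0.39).

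Ly6e encodes a small lipid-anchored surface protein that interferon induces and that many cell types make, so it is not a marker of macrophages alone, and it had by far the highest counts of the 9 genes. It had 1869, 1470, 1831, 1807 and 2260 normalized counts in +/+ kidneys. The S74N/+ kidneys had 3578, 2428, 1939, 1968 and 1863, of which only replicates 1 and 2 lay above all +/+ kidneys. The log2 fold change was 0.32 ± 0.17 (SE; 95% interval -0.04 to 0.67; limma adjusted p = 0.25), and without S74N/+ replicate 1 it was 0.16.

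**Figure D2:**
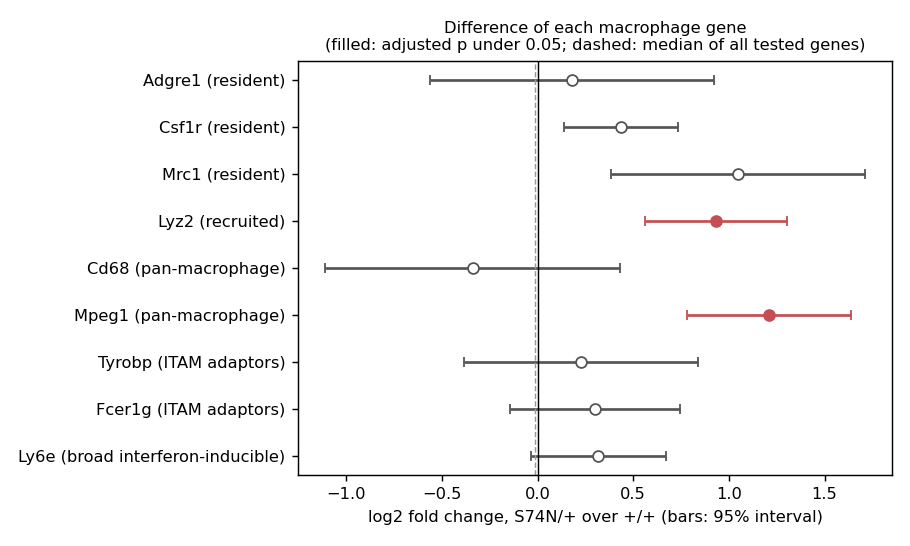
Log2 fold change of each macrophage gene, S74N/+ over +/+ (horizontal axis), with its 95% interval from limma; filled red points passed an adjusted p of 0.05 and the dashed line is the median of all 13236 tested genes. Mpeg1 (1.21) and Lyz2 (0.93) are filled, Mrc1 (1.05) and Csf1r (0.44) have intervals above 0 without passing over all genes, and the intervals of the other 5 include 0.

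The sample titles carry numbers that fall below or above 200, a split that holds both genotypes and that the labels do not explain. Within the lower range (3 kidneys per genotype) the mean log2 difference was 0.77 for Lyz2 and 1.33 for Mpeg1. In the upper range (2 per genotype) it was 1.17 for Lyz2 and 1.04 for Mpeg1. Over the 9 members, 7 had the same sign in both ranges, and Cd68 and Ly6e did not. With the range as a term in limma, 3 members rather than 2 were called higher, Csf1r being added (adjusted p = 0.046).

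Resident genes were then set against the recruited gene within each sample, which cancels any factor common to the whole library. The sides follow textbook use of the genes, so the differences compare genes and do not measure resident against recruited cells. Because Cd14 was not analysed, 3 of the 6 planned gene pairs could be formed, each Lyz2 minus a resident gene on the log2 scale. Lyz2 minus Adgre1 was 1.71, 2.72, 2.01, 2.01 and 2.93 in the +/+ replicates. In the S74N/+ replicates it was 3.49, 2.55, 2.27, 2.49 and 4.33. Replicates 1 and 5 of the S74N/+ group lay above all +/+ kidneys, and the other 3 lay within their range. The difference between genotypes was 0.75 ± 0.45 for Lyz2 minus Adgre1 (SE, n = 5 per group; exact permutation p = 0.13, adjusted over 3 pairs 0.202), 0.49 ± 0.24 for Lyz2 minus Csf1r (exact permutation p = 0.095, adjusted 0.202) and -0.12 ± 0.37 for Lyz2 minus Mrc1 (exact permutation p = 0.79, adjusted 0.79). The groups overlapped for each pair, and the sign of Lyz2 minus Mrc1 was not stable, running from -0.26 to 0.10 over the fits that left out 1 kidney. A different change of Lyz2 and the resident genes was therefore not detected with these 10 kidneys, which does not show that they changed alike.

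**Figure D3:**
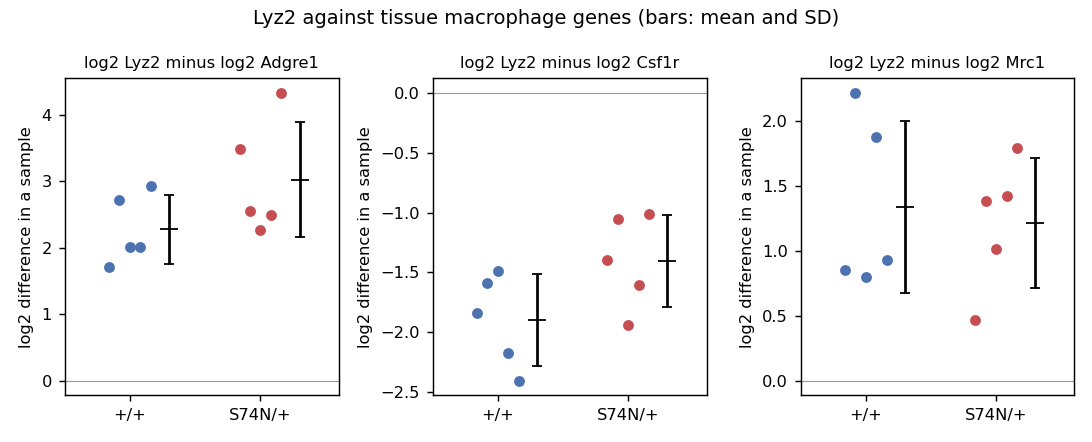
Within-sample difference of log2 normalized counts, Lyz2 minus Adgre1, Csf1r or Mrc1 (vertical axes), for the 5 +/+ (blue) and 5 S74N/+ kidneys (red), with mean and SD as black bars. The groups overlap in each panel, with means of 2.28 and 3.03 for Adgre1, -1.90 and -1.40 for Csf1r and 1.34 and 1.22 for Mrc1.

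The members did not rise and fall together from kidney to kidney. When each log2 value was taken as its deviation from the mean of its genotype, Pearson's r between members over the 10 kidneys ran from -0.56 (Mpeg1 and Tyrobp) to 0.78 (Mpeg1 and Ly6e), with a median of 0.09 over 36 pairs, of which 23 were positive. All the values of a kidney come from 1 library, and several members have few reads. Adgre1 and Csf1r, both set on the resident side, had an r of -0.54. Tyrobp and Fcer1g had an r of 0.22. S74N/+ replicate 1 was the highest of its group for Mrc1, Mpeg1 and Ly6e and the lowest for Tyrobp, and S74N/+ replicate 5 was the highest for Csf1r, Lyz2, Cd68 and Tyrobp and the lowest for Adgre1 and Ly6e.

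The genes whose deviations were most like those of Csf1r, among 7737 genes with a mean of at least 50 normalized counts, were Smg5 (r = 0.96), Zbtb11 (0.92), Supt6 (0.91), Tsn (0.897) and Dnttip2 (0.897), as a description over 10 kidneys. Csf1r itself deviated with Mpeg1 by an r of 0.01 and with Mrc1 by 0.10.

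Differences in this and the following paragraphs are log2 fold changes, S74N/+ over +/+. To place the members, 99 further genes of macrophage biology were read from lists written for the purpose, of which 71 were tested. These lists were chosen with earlier results of these data known, so the shares called describe them and are not a test. In S74N/+ kidneys 15 of these 71 were called higher (21.1%, against 3.45% of all genes) and 3 lower (4.23%, against 2.58%), with a median log2 fold change of 0.51. Of the 9 tested companions of the resident kind, 3 were called higher and 0 lower, and 6 had a positive log2 fold change. Cx3cr1, the fractalkine receptor of kidney macrophages, ran from 52.4 to 92.5 normalized counts in +/+ (median 55.1) and from 112.03 to 168.1 in S74N/+ kidneys (median 157.6), and rose by 1.22 ± 0.18 on that scale (SE; adjusted p of limma = 0.0015). Aif1, which encodes the cytoskeletal protein Iba1, rose by 1.38 ± 0.30 (SE; limma adjusted p = 0.016). Of the complement C1q chains, which macrophages secrete, C1qb rose by 0.73 ± 0.15 (SE; limma adjusted p = 0.013), while C1qa had 0.51 ± 0.21 (adjusted p = 0.14) and C1qc -0.48 ± 0.29 (adjusted p = 0.31). The other negative values were those of Ms4a7 (-0.77 ± 0.27, SE; limma adjusted p = 0.095), with means of 28.3 in +/+ and 16.4 in S74N/+ kidneys, and Folr2 (-0.42 ± 0.56, SE; limma adjusted p = 0.68). The groups did not overlap for Cx3cr1, Aif1 or C1qb.

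Companions of the recruited kind had 4 of 9 tested genes called higher, Ccr2, Ly6c2, Fn1 and Thbs1, and a median of 0.89 against 0.39 for the resident kind, a difference between the lists that was not tested. The call of Thbs1 was lost in 3 of the 10 fits without 1 kidney. Ccr2, the chemokine receptor by which monocytes leave bone marrow, had 50.3, 45.8, 29.8, 25.3 and 27.9 normalized counts in +/+ kidneys. In S74N/+ kidneys it had 122.2, 126.003, 66.99, 91.7 and 134.1, all above the +/+ kidneys, and it rose by 1.58 ± 0.24 (SE; limma adjusted p = 0.0015). Ly6c2, which encodes the monocyte surface protein Ly6C, rose by 1.59 ± 0.34 (SE; limma adjusted p = 0.014), from 11.5 to 17.5 normalized counts in +/+ to 20.4 to 91.1 in S74N/+ kidneys, and shares sequence with Ly6c1 (-0.07 ± 0.14). Fn1, fibronectin, rose by 1.03 ± 0.20 (SE; limma adjusted p = 0.00896), and fibroblasts and other cells also make it.

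The ligands of Csf1r had log2 fold changes of 0.70 ± 0.27 for Csf1 and 0.64 ± 0.20 for Il34 (SE) and neither passed (limma adjusted p = 0.12 and 0.063). Among 12 ligands and transcription factors, 2 were called higher and 2 lower. Runx1, a transcription factor of blood cell development, rose by 1.23 ± 0.32 (SE; limma adjusted p = 0.035), with overlapping groups and a call that was lost in 6 of the 10 fits without 1 kidney. Id3 fell by 1.90 (SE 0.31; limma adjusted p = 0.0032) and Maf fell by 1.0005 (SE 0.17; limma adjusted p = 0.0043). Whole kidney RNA does not show in which cells either gene fell. Maf had 5236 ± 698 normalized counts in +/+ kidneys (SD, n = 5), and kidney tubules are known to make it too. Spi1, which encodes PU.1, had 0.61 ± 0.31 (SE; limma adjusted p = 0.23).

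For receptors and kinases that work through the ITAM adaptors, 12 of 12 tested genes had a positive log2 fold change and 1, the kinase Lyn, passed (0.53 ± 0.14, SE; limma adjusted p = 0.042), a call that was lost in 8 of the 10 fits without 1 kidney (limma adjusted p up to 0.114). Syk itself had 0.62 ± 0.45 (SE; limma adjusted p = 0.41) at 9.68 ± 3.404 normalized counts in +/+ kidneys (SD, n = 5). None of 7 tested genes of Toll-like receptor signaling passed with limma, although 7 of 7 had a positive log2 fold change (median 0.17). The most abundant of them, Irak1, had 0.16 ± 0.10 (SE; limma adjusted p = 0.33). The Toll-like receptors of that list, such as Tlr2 and Tlr4, were not analysed here. Phagocyte oxidase and lysosomal genes had 3 of 9 called higher and 1 lower. Rac2 and Cybb, which encode a regulator and the catalytic subunit of the oxidase, rose by 1.44 ± 0.26 and 1.07 ± 0.16 (SE; limma adjusted p = 0.0062 and 0.0014), and Ctss, the lysosomal protease cathepsin S, by 1.05 ± 0.17 (SE; limma adjusted p = 0.0032). Lgmn, the protease legumain, which proximal tubules also make, fell by 0.67 (SE 0.17; limma adjusted p = 0.031), a call that was lost in 6 of the 10 fits without 1 kidney.

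Ly6e has relatives in the Ly6 family and among genes that interferon induces. Of 4 tested Ly6 genes only Ly6c2 passed, and Ly6a, the most abundant, had 0.13 ± 0.12 (SE; limma adjusted p = 0.51). Of 10 tested interferon-stimulated genes 2 were called higher, and of these Xaf1 had 1.08 ± 0.28 (SE; limma adjusted p = 0.034), with groups that overlapped and a call that was lost in 7 of the 10 fits without 1 kidney.

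**Figure D4:**
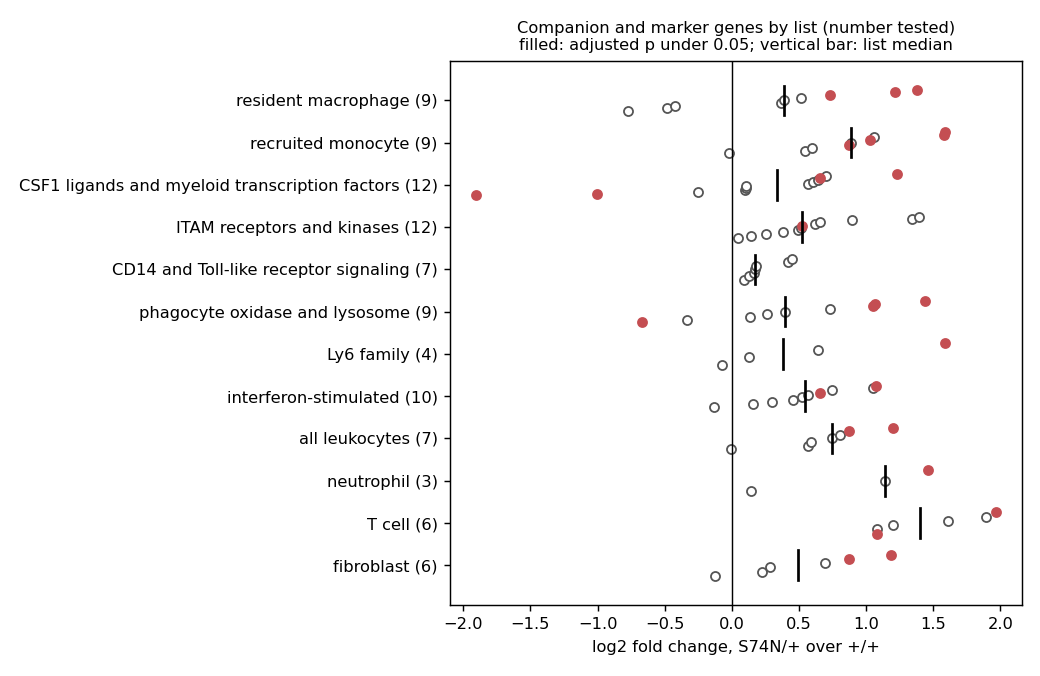
Log2 fold change, S74N/+ over +/+ (horizontal axis), of each tested gene of 8 companion lists and 4 lists of other cells, 1 list per line with the number tested; filled red points passed an adjusted p of 0.05 and vertical bars mark list medians. Most points lie to the right of 0, and the filled points to its left are Id3, Maf and Lgmn.

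Markers of other cells moved with the same contrast, and their part in the values of the members was not tested. Of 7 pan-leukocyte genes 2 were called higher and 5 were not called, and 6 had a positive log2 fold change. The summed level of all 7 ran from 287.1 to 356.1 normalized counts in +/+ and from 436.9 to 670.4 in S74N/+ kidneys. Ptprc, which encodes CD45, rose by 1.20 ± 0.18 (SE; limma adjusted p = 0.0015). Neutrophils also make Lyz2, and 3 of 12 neutrophil markers were in the table, with sums of 21.1 to 38.04 in +/+ and 42.99 to 82.995 in S74N/+ kidneys. S100a9 was called higher (1.46 ± 0.40, SE; limma adjusted p = 0.0399) with groups that overlapped, S100a8 had 1.14 ± 0.37 (SE; adjusted p = 0.074), and Ly6g, Mpo, Elane and 6 others were not analysed here. T cell markers had 2 of 6 tested genes called higher, Trac and Trbc1 (1.08 ± 0.27 and 1.97 ± 0.43, SE; limma adjusted p = 0.0295 and 0.016). Trbc1 was at most 4.80 normalized counts in +/+ kidneys, under the filter value of 5. It passed the filter only through the S74N/+ kidneys, so its call is not independent of the filter. Fibroblast markers had 2 of 6 called higher, Col1a1 by 1.19 ± 0.15 and Pdgfra by 0.87 ± 0.20 (SE; limma adjusted p = 0.00047 and 0.018). Injured tubule markers had 2 of 3 called higher, Havcr1 by 2.89 ± 0.62 and, with overlapping groups, Lcn2 by 2.15 ± 0.60 (SE; limma adjusted p = 0.014 and 0.045).

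Dendritic cell genes had 0 of 2 tested called, and 1 of the 2 had a positive log2 fold change (list median 0.21). Zbtb46, the more abundant, was at -0.24 ± 0.29 (SE; limma adjusted p = 0.63). B and plasma cell genes had 0 of 3 called, with Jchain at 0.80 ± 0.33 (SE; limma adjusted p = 0.14). NK cell genes had 0 of 1 called, with Nkg7 at 0.84 ± 0.41 (SE; limma adjusted p = 0.21). Endothelial genes had 0 of 5 called, and 4 of 5 had a positive log2 fold change (list median 0.26). The most abundant, Kdr, went the other way, at -0.49 ± 0.14 (SE; limma adjusted p = 0.051) with groups that did not overlap. Mast cell markers were not analysed here.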

How the data were processed

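Whole kidney RNA of 10 mice was sequenced from the 3′ end. Per the study's methods and the submitters' processing notes, the authors checked reads with FastQC 0.11.7, aligned them to GRCm39 with TopHat2 2.0.10, Bowtie 1.0.0 and SAMtools 0.1.19, counted them by strand with HTSeq 0.6.1 and normalized with DESeq2. The deposited values are a signal, gene counts divided by size factors, in 1 table for all samples, in which the lowest gene mean was 4.37.

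Genotypes came from the labels. A gene was kept with at least 5 normalized counts in at least 5 samples, which removed 63. Log2(value + 1) was compared with limma 3.58.1 (R 4.3.3; empirical Bayes, variance allowed to depend on level), with Benjamini-Hochberg adjustment over all 13236 genes and a threshold of 0.05. Fold changes on this scale understate those of low genes. Single genes and gene pairs had two-sided exact permutation tests (scipy 1.17.1). Over all 10 columns 100% of values were whole multiples of 1 read to within 0.1 reads. Reads were recovered for 8 columns only. In +/+ replicate 5 and S74N/+ replicate 3, 1 read was worth close to 1 (0.995 and 0.9998), and these were left out. That was a choice, since their values were whole multiples too. On the 8, edgeR 4.0.16 and DESeq2 1.42.0 were run on the recovered reads, calling 851 and 1402 genes against 798. Other pseudocounts, filters and scalings, the range of the title numbers as a covariate and left-out kidneys were also tried, and limma on the same 8 samples was added after seeing the data. The code was tested on simulated data. All members are named; from each companion or other-cell list, up to 3 called genes with the largest changes and no overlap, or the most abundant gene where none passed; the ligands Csf1 and Il34; set markers (Ptprc, S100a8, S100a9, Ly6c2, Ccr2 and the C1q chains); and the 5 genes most like Csf1r. Spi1, Syk, Ly6a, Ly6c1, Lgmn, Thbs1, Ms4a7, Folr2, Runx1, Xaf1, Lcn2 and the kidney markers fall outside that rule and were named after their values were seen. The members and lists were chosen with earlier results of these data known. Some genes of the lists are counted but not reported by name here.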

Additional observations from a re-analysis of the deposited data

Results flagged for a closer look

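Of 24 sets of 5 values searched (9 members and 3 gene pairs in each genotype), 3 held a kidney far from the other 4, and chance marks about 1 in 20. Mrc1 was at 112.8 normalized counts in S74N/+ replicate 1, where the other S74N/+ kidneys had 47.9 to 62.03, and without it the log2 fold change of Mrc1 was 0.85 (limma adjusted p = 0.084). Mpeg1 was at 115.6 in the same kidney, where the others had 57.99 to 72.7, and without it Mpeg1 still passed (1.05, limma adjusted p = 0.0028). Cd68 was at 27.97 in +/+ replicate 1, where the other +/+ kidneys had 7.96 to 13.5, and without it the log2 fold change of Cd68 was -0.09 (limma adjusted p = 0.91). What set these kidneys apart was not tested.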

How the results depend on the processing

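Lyz2 and Mpeg1 passed in every alternative run, with log2 fold changes of 0.804 to 1.04 and 1.05 to 1.29 over the 10 fits without 1 kidney. Members called higher numbered 4 rather than 2 with equal library totals and 4 with DESeq2 on 8 samples, Csf1r and Mrc1 being added, and 2 to 3 without 1 kidney. The sign of Adgre1 turned with edgeR (-0.011), DESeq2 (-0.021) and limma (-0.077) on 8 samples and ran from -0.0026 to 0.38 without 1 kidney. Tyrobp turned to -0.014 with limma on 8 samples. Lyz2 minus Mrc1 turned to 0.80 on within-gene ranks and ran from -0.26 to 0.10 without 1 kidney. Calls over all genes ran from 311 to 902 without 1 kidney and were 391 without the variance trend and 943 with equal library totals. Companion calls ran from 10 to 15 higher and 2 to 3 lower without 1 kidney; Thbs1, Runx1, Lyn, Lgmn and Xaf1 lost theirs without the trend. The cause was not tested. Members near 10 to 30 normalized counts rest on few reads. No paired analysis was possible because the labels carry no replicate numbers.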
